A study of Mus musculus with 27 samples.

Results

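The comparison set whole mouse embryonic stem cells 4 days after induced loss of Dicer against the same cells at day 0, with 3 libraries on each side, 6 of the 27 libraries of the series. It was read over protein-coding and long noncoding RNA (lncRNA) genes with no near-identical copy among annotated transcripts, called single-copy genes here. Of 38123 genes in the table, 23103 were of this kind, and 13318 of the 15991 genes that reached the filter on low values. Single-copy genes were used because reads of a copied gene can be assigned to its copies, and whole cells at day 0 differed from the other libraries in such genes.

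The cells were XY embryonic stem cell lines named DTCM23/49, carrying a conditional Dicer allele. Plates were coated with gelatin, and the medium contained serum and leukaemia inhibitory factor (LIF). Day 0 libraries came from cells before induction. In day 4 libraries, the RNase III domain of Dicer had been deleted with 800 nM 4-hydroxytamoxifen 4 days earlier. Whole cells at days 8, 10 and 12, and nuclear and cytoplasmic fractions at days 0 and 12, had the same origin per the labels. The libraries labelled whole cell day 12 went against that label: Dicer1 was at 16.7, 13.8 and 13.4 FPKM in them, as at day 0. They enter the test only through the shared estimate of spread and the filter on low values, and their levels are not otherwise used below. The protocol names cells given ethanol as controls, but no library analysed here is labelled as ethanol-treated at day 4. Days in culture and tamoxifen itself therefore cannot be told apart from the loss of Dicer. The same holds, for single-copy genes too, for any difference in how day 0 and day 4 libraries were made or sequenced. Day 0 whole cell libraries were deeper, as given below. Some single-copy genes in them, such as Platr25 described below, also stood apart from the day 0 cytoplasm and nucleus. The part of library handling in the calls was not tested. Dicer-deficient colonies were also selected and expanded, per the labels. The replicates are called biological, with no word on separate cultures, and a p-value therefore speaks of the spread among these libraries, which may be technical.

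Dicer cuts hairpin precursors into mature microRNAs, which guide Argonaute proteins to sites in mRNA 3′ untranslated regions (UTRs) that pair with the seed, bases 2 to 8 of the microRNA. In mouse embryonic stem cells the miR-290 and miR-302 clusters and the related miR-17 family make up much of the microRNA pool, and they are known to hold down cell cycle inhibitors such as Cdkn1a. The let-7 family is low in these cells and rises as they differentiate. Mature microRNAs already made are stable and can outlast the enzyme.

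The sequences below carry the seeds by which genes were grouped, with the seed in capitals. They are from RefSeq on GRCm38.p6, 5′ to 3′. The 2 upper microRNAs share 1 seed, and that of miR-17 is shifted against it by 1 base, so the families pair with overlapping but different sites.
mmu-miR-294-3p: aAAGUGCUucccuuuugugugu
mmu-miR-302b-3p: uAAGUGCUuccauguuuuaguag
mmu-miR-17-5p: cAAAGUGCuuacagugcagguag
mmu-let-7a-5p: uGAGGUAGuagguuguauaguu

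Sites of the first family are shown from the 3′ UTRs of 2 targets, in GENCODE M21 transcripts on GRCm38. At day 4 Cdkn1a passed the main test described below and Lats2 did not, but no test compared the 2 genes. Capitals mark the 8-base site, which pairs with the seed and ends in A. Cdkn1a lies at chr17:29090976-29100727 on the plus strand and Lats2 at chr14:57689662-57758388 on the minus strand.
Cdkn1a site 1: ataccgtgggtgtcaaAGCACTTAgtgg
Lats2 site 1: agtacagtatggaaagAGCACTTAtttt

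Values are FPKM, fragment counts divided by transcript length and by the library's total, so each is relative to the other RNAs of its library. The steps between low values give depths relative to day 4 replicate 1: 3.07 to 3.62 at day 0 in whole cells, 0.721 to 1 at day 4 and 1.5 to 1.81 in the day 0 cytoplasm. Day 4 libraries were also less alike. Their mean correlation with the other libraries of the group was 0.938 to 0.963, against 0.989 to 0.991 at day 0, and the median standard deviation of a gene was 0.29 against 0.12 on the log2(FPKM + 0.5) scale. Day 4 replicate 3 stood apart: it had the lowest depth, the lowest correlation and the highest FPKM sum, 459892 against 362396 to 403944 in the other 5 libraries. The test shares its estimate of spread with quieter groups, whose median standard deviations were 0.11 to 0.13. Its SE and adjusted p therefore tend to be too small for day 4. For that reason the total number of calls and the adjusted p of most genes and lists named are also given from a fit of the 6 libraries alone. The counts by gene class, seed site and length and those against the day 0 and day 12 fractions come from the shared fit only. All 8 embryonic stem cell markers (among them Pou5f1, Sox2 and Nanog) were present on both days, with 2275 to 2864 FPKM in sum at day 0 and 2473 to 4634 at day 4, and none passed the test. The 6 fibroblast markers summed to 9.57 to 10.1 FPKM at day 0 and 6.33 to 7.82 at day 4. Lum was at 0 in all 6 libraries, Col3a1 and Postn stayed under 0.5, Dcn reached 0.554 and Col1a1 3.19, and Thy1 made up most of the sum and fell. Neuron markers, nearly all Tubb3, summed to 41.3 to 52.5 and then 40.8 to 49.0, blood markers to 0.900 to 1.08 and then 0.629 to 1.11, and trophoblast markers to 0.341 to 0.641 and then 0.764 to 1.04. The part of such cells in the results was not tested.

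At day 4 more single-copy genes rose than fell, except after quantile normalization. By limma with Benjamini-Hochberg adjustment over all 15991 genes, 351 of 13318 single-copy genes rose (2.64%) and 132 fell (0.991%), together 483 (3.63%), while their median difference was -0.00 on the log2(FPKM + 0.5) scale. Over genes of every kind 1071 passed (6.7%). Differences were mostly small, with a median of 0.61 among the rises and -0.54 among the falls, and 48 rises and 23 falls were of at least 1. Of the 483 genes, 82 also passed when only the 6 libraries were fitted, 58 of the rises and 24 of the falls, and 111 passed when groups were weighted by their spread. The share of rises among the calls was 72.7%, but 44.6% after quantile normalization, 67.6% after median-of-ratios scaling and 62.5% with copied genes kept. Without the libraries labelled day 12 there were 378 calls. Without day 4 replicate 3 there were 1065, and without day 0 replicates 1, 2 or 3 there were 316, 272 and 267. Short transcripts gave more of the calls than long ones: 155 rises and 51 falls came from the shortest 4439 genes, 70 and 24 from the longest 4440. The median difference was 0.05 over the shortest genes and -0.04 over the longest. Protein-coding genes gave 323 rises among 12194 genes tested (2.65%) and 116 falls (0.951%). Among 1124 lncRNA genes 28 rose (2.49%) and 16 fell (1.42%).

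**Figure D1:**
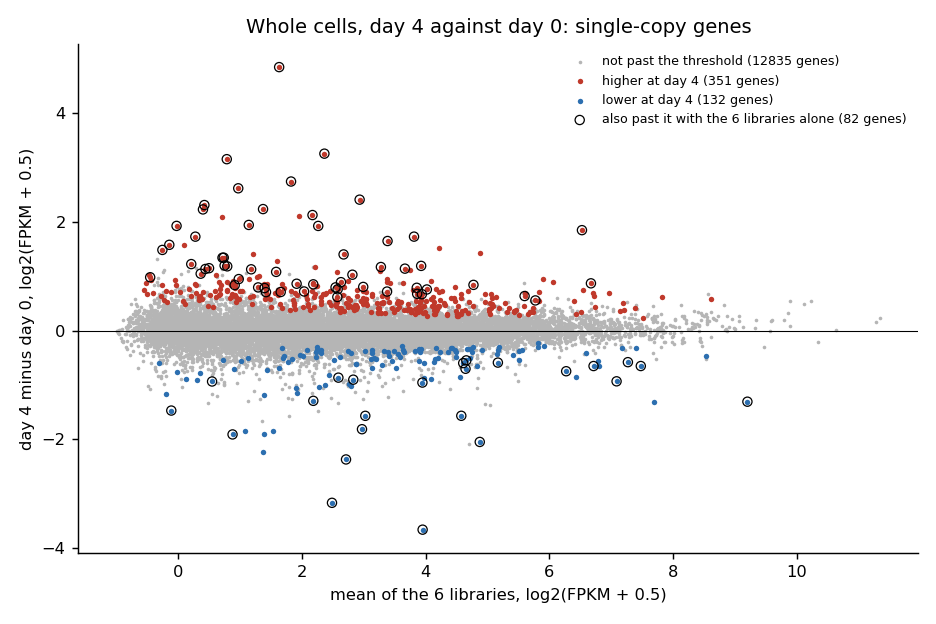
Mean level in the 6 libraries (x, log2(FPKM + 0.5)) against the difference between day 4 and day 0 (y, same scale), 1 point a single-copy gene. The 351 rises and 132 falls flank a cloud centred on 0, and rings mark the 82 that also passed in a fit of the 6 libraries alone.

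The fractions of day 0 cells give a second set of untreated levels. Of the 351 rises, 308 also had a day 4 mean above the day 0 cytoplasm, and 165 lay above all 3 day 0 groups (whole cells, cytoplasm and nucleus). Of the 132 falls, 94 lay below the day 0 cytoplasm and 72 below all 3 groups. The other genes had day 4 levels that untreated fractions already showed. Platr25, named as a pluripotency-associated transcript and annotated as protein-coding in GENCODE M21, is an example. It had 0.729, 0.649 and 0.696 FPKM at day 0 and 5.39, 4.77 and 5.16 at day 4, yet its day 0 cytoplasm mean was 5.88. The day 0 whole cell libraries alone stood low.

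Dicer1 itself had the largest fall of a single-copy gene other than Gm10382, a predicted gene singled out after its value was seen. It lies at chr12:104687742-104751952 on the minus strand, and had 15, 16 and 17.9 FPKM at day 0 against 1.63, 1.71 and 0.876 at day 4. All day 4 libraries were far below all day 0 libraries, and below the day 0 cytoplasm mean of 22.5. The mean fell from 16.3 ± 1.47 (SD, n = 3) to 1.41 ± 0.462, 11.6-fold, with a log2 difference of -3.17 (SE 0.16, limma adjusted p = 3.5e-08). An exact 2-sided permutation test of the 6 values gave p = 0.1, the smallest that 3 against 3 allow. Levels at days 8 and 10 were 1.71 and 1.83.

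Among 13 single-copy genes of the microRNA machinery, Dicer1 was the only fall and Tnrc6a the only rise. Tnrc6a encodes GW182, the partner through which Argonaute represses its targets. It had 11.4, 9.66 and 10.6 FPKM at day 0 and 16.6, 20.1 and 18.9 at day 4, with no overlap. The difference was 0.79 (SE 0.11, limma adjusted p = 0.00042), and it also passed in the 6 libraries alone (adjusted p = 0.025). Its level went on to 28.4 at day 8 and 34 at day 10. The median over the 13 genes was -0.03.

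Most known targets of miR-290 and miR-302 did not pass at day 4. Of 18 single-copy targets, 3 rose and none fell, where 2.64% of all single-copy genes rose. The median difference was 0.14 against -0.00 over all single-copy genes. Means were above day 0 for 13 targets and below for 5. By library, the median was 0.24, 0.29 and -0.04 in day 4 replicates 1, 2 and 3. Against the day 0 cytoplasm, 9 of the 18 means were above and 9 below. Cdkn1a, the p21 inhibitor of cyclin-dependent kinases whose site is shown above, had 28.7, 23.6 and 25.7 FPKM at day 0 and 35.1, 34.7 and 57.9 at day 4. Every day 4 library was above every day 0 library, but replicates 1 and 2 were below the day 0 cytoplasm mean of 40.3. The difference was 0.66 (SE 0.15, limma adjusted p = 0.017, and 0.27 in the 6 libraries alone). Ei24, an endoplasmic reticulum protein induced by p53, had 46.9, 44.7 and 42.4 FPKM against 68.9, 64.8 and 63.7, a tight rise of 0.55 (SE 0.08, adjusted p = 0.00057) that also passed in the 6 libraries (adjusted p = 0.04). Rhoc, a small GTPase, had a mean of 40.6 ± 2.13 and then 57 ± 14.5 (SD, n = 3), with an adjusted p of 0.047, and 0.4 in the 6 libraries.

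The other targets followed throughout did not pass at day 4. Lats2, the Hippo pathway kinase with the second site shown above, had 0.549, 0.686 and 0.729 FPKM at day 0 and 0.905, 0.919 and 0.535 at day 4. Replicate 3 was the lowest of all 6 and the groups overlapped, with a difference of 0.14 (adjusted p = 0.6). Its mean was 5.68 at day 8 and 8.5 at day 10. Casp2, a caspase, had means of 2.67 and 2.72 at days 0 and 4 and 6.04 at day 8. Rbl2, a member of the retinoblastoma family, had 0.837 and 0.912, then 1.48. None of the 15 single-copy let-7 targets passed, and their median was -0.02. A further 1 target on that list, counted as copied, fell.

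Genes were also grouped by 8-base seed sites in annotated 3′ UTRs, over 12173 single-copy protein-coding genes with a UTR, of which 2.65% rose and 0.953% fell at day 4. Of 422 genes with a miR-290/miR-302 site, 13 rose and 2 fell, and their median difference was 0.03 against -0.00 without a site. Of 547 with a miR-17 site, 24 rose (4.39%) and 2 fell, and the median was 0.05. The 470 with a let-7 site had 8 rises and 1 fall, with a median of -0.03. The difference between genes with and without a site was smaller than the spread of that difference between libraries. For miR-17 it was 0.08 and 0.13 in day 4 replicates 1 and 2 and -0.06 in replicate 3. For miR-290/miR-302 the same values were 0.05, 0.07 and -0.04, and for let-7 they were 0.00, 0.04 and -0.12. Without replicate 3 the pooled difference was 0.11 for miR-17, 0.06 for miR-290/miR-302 and 0.02 for let-7, which turned its sign. UTR length differed between these groups, since 300 of the 422 genes with a miR-290/miR-302 site were in the longest of 3 UTR classes of equal size. Within the short and middle classes the miR-290/miR-302 difference was 0.11 in each, and 0.02 in the long class.

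At the later days genes with a miR-290/miR-302 or miR-17 site stood further from those without, and genes with a let-7 site did not. Genes with a miR-290/miR-302 site had a median of 0.30 at day 8 and 0.35 at day 10, those with a miR-17 site 0.34 and 0.40, and those with a let-7 site 0.09 and 0.11. Without the site of a family the medians were 0.06 to 0.07 at day 8 and 0.08 to 0.09 at day 10. At day 8, 166 of the 422 and 221 of the 547 were higher, against 20.7% of all genes with a UTR. At day 10, 208 and 269 were higher, against 29.1%. These comparisons share the day 0 libraries with the one at day 4, so the values stand side by side only. The curves by seed family show the day 4 lines close together and the later lines for miR-290/miR-302 and miR-17 to the right.

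**Figure D2:**
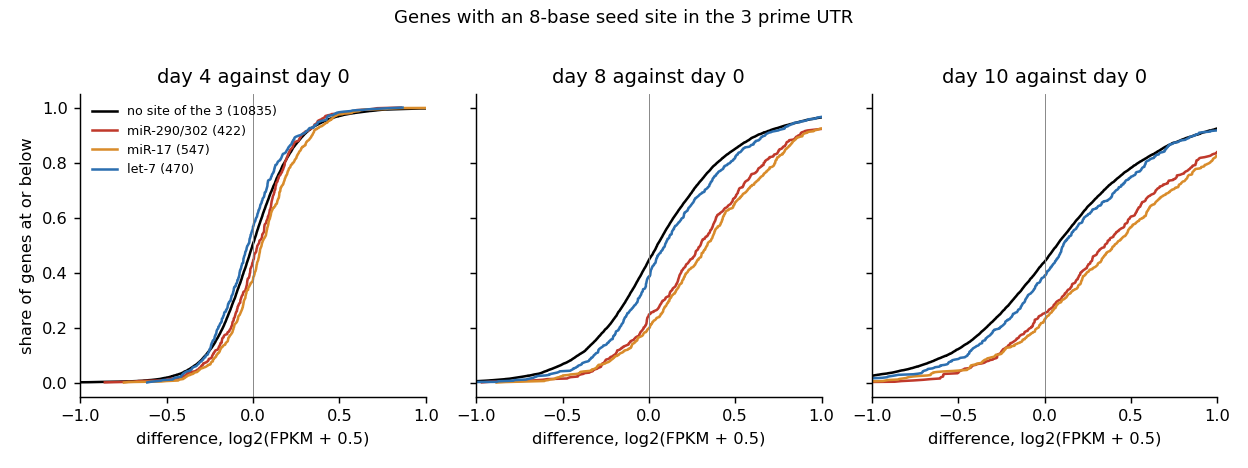
Share of genes (y) at or below each difference from day 0 (x, log2(FPKM + 0.5)), by seed family, at days 4, 8 and 10. At day 4 the lines lie close together around 0, and at days 8 and 10 the genes with miR-290/miR-302 or miR-17 sites are shifted to medians of 0.30 to 0.40.

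Extraembryonic endoderm genes had the highest medians of the 40 lists at day 4. List counts here and below stand beside the 2.64% of all single-copy genes that rose and the 0.991% that fell. In the embryo, Gata6, Gata4 and Sox17 set up the primitive endoderm, and its descendants secrete the collagen IV and laminin of Reichert's membrane and take up nutrients through Dab2-dependent endocytosis. Of 15 single-copy genes for such matrix and uptake proteins, 6 rose, none fell and the median difference was 0.69. By library, the list's median was 0.62, 0.82 and 0.06 in day 4 replicates 1, 2 and 3, so replicate 3 hardly showed it. All 6 stayed past the threshold whichever of the 6 libraries was left out, and Cited1 and Srgn also passed in the 6 libraries alone. All 6 were above the day 0 cytoplasm, but only 2 of the 6 were above all 3 day 0 groups. Of 7 endoderm transcription factors tested, Gata4 and Sox17 rose and the median was 0.61. In these bulk libraries a change in the number of cells of a type and a change of RNA per cell cannot be told apart.

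Gata4 (chr14:63198922-63271692, minus strand) had 0.678, 0.429 and 0.622 FPKM at day 0 and 1.63, 1.29 and 2.21 at day 4. The lowest day 4 library was nearly 2-fold above the highest at day 0, and the difference was 1.02 (SE 0.17, limma adjusted p = 0.0015, and 0.063 in the 6 libraries). Sox17, also a low transcript, had 0.201, 0.14 and 0.176 and then 0.643, 0.503 and 0.714, a rise of 0.73 (SE 0.15, adjusted p = 0.01, and 0.096). Gata6 had 0.243, 0.409 and 0.33 and then 0.586, 0.983 and 0.814; the groups did not overlap, but its adjusted p of 0.054 missed the threshold. Gata4, Gata6, Sox17 and Foxa2, the endoderm markers, summed to 1.13 to 1.27 FPKM at day 0 and 3.02 to 4.29 at day 4. At these levels they are thousandths of the sum of the stem cell markers.

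The paired genes Col4a1 (chr8:11198423-11312826, minus strand) and Col4a2 (chr8:11312805-11449287, plus strand), which start head to head and encode the chains of collagen IV, rose together. Col4a1 had 6.47, 7.1 and 7.22 FPKM at day 0 and 17.5, 15.7 and 9.72 at day 4, and Col4a2 3.23, 3.95 and 3.61 and then 9.5, 9.37 and 5.91. Replicate 3 was the lowest of the day 4 libraries for both and still above day 0. The differences were 0.95 (SE 0.18, limma adjusted p = 0.0043) and 1.07 (SE 0.17, adjusted p = 0.0012), with 0.098 and 0.05 in the 6 libraries. Both were higher still in the day 0 nucleus, at 32.5 and 26.4.

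Cited1, a transcriptional co-regulator, had 1.28, 1.78 and 1.65 FPKM and then 3.31, 4.11 and 4.17. With a difference of 1.08 (SE 0.14, limma adjusted p = 0.00019) it was 2.46-fold higher. Srgn, the core protein of the proteoglycan serglycin, had 0.883, 0.582 and 0.446 and then 2.96, 2.56 and 7.09, and its difference of 1.94 (SE 0.32, adjusted p = 0.0018) rested most on replicate 3. Dab2, the endocytic adaptor, had a mean of 0.85 ± 0.0979 and then 1.73 ± 0.149 (SD, n = 3). Sparc, a collagen-binding matrix protein that was already abundant, had 99.7, 98.7 and 93.9 and then 135, 137 and 210. The laminin chains did not pass: Lama1 had 16.7, 17.8 and 8 at day 4 after a day 0 mean of 7.8, and its replicate 3 lay among the day 0 values (adjusted p = 0.16). None of 16 basement membrane and integrin genes outside this list passed, and their median was -0.07.

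The later days divide this group by level. Col4a1 reached a mean of 23.5 FPKM at day 10, Sparc 335 and Cited1 5.01, all above their day 4 means. Srgn was at 1.33 at day 8 and 0.391 at day 10, Dab2 at 1.1 and 0.947, and Sox17 at 0.31 and 0.194, below each of their 3 day 4 libraries at day 10. In the cytoplasm, whose libraries are not shared with the day 4 comparison, Col4a1, Col4a2, Sparc and Cited1 were higher at day 12 than at day 0, by 1.86, 1.90, 1.72 and 1.05 (limma adjusted p 3.2e-05, 4.7e-05, 4.3e-05 and 0.0042). So was Gata4 (adjusted p = 0.00011). Srgn and Dab2 had -0.48 and -0.15 there (adjusted p = 0.46 and 0.77).

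**Figure D3:**
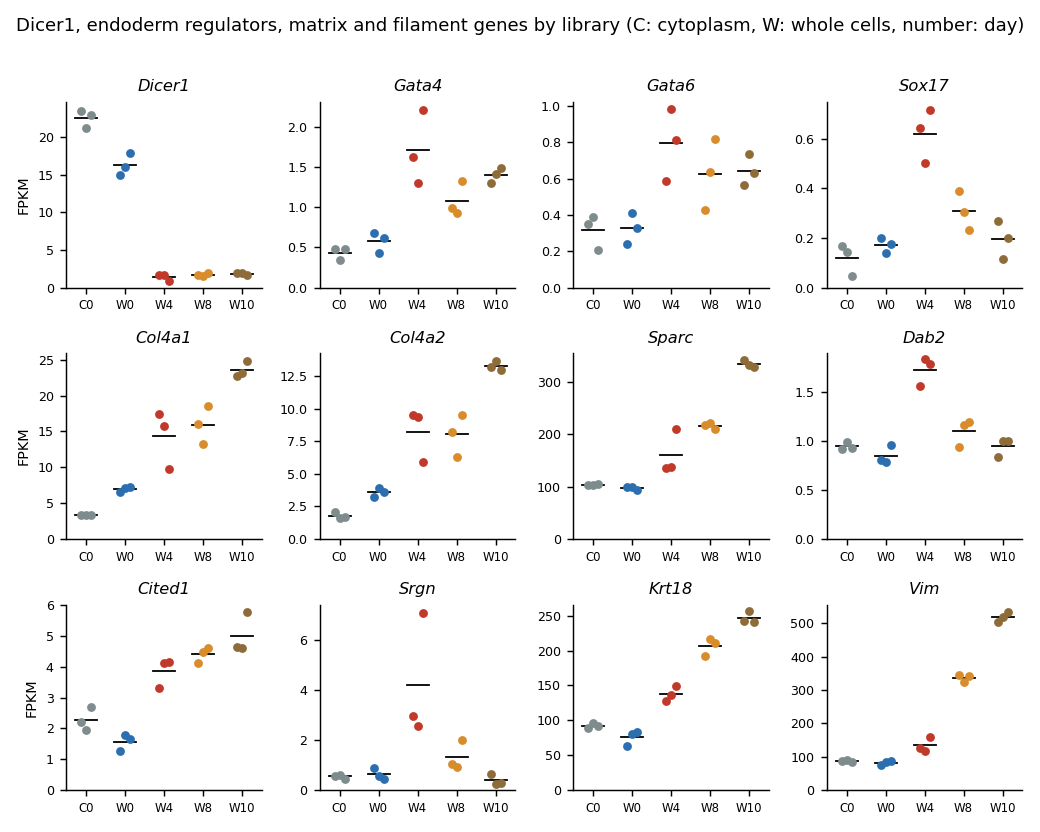
FPKM (y, from 0) of Dicer1, endoderm regulators, matrix and filament genes in each library (points) with group means (lines), for the day 0 cytoplasm (C0) and whole cells at days 0, 4, 8 and 10 (W0 to W10). Every gene but Dicer1 has its 3 day 4 points above its 3 day 0 whole cell points, and Srgn, Dab2 and Sox17 come down again by day 10.

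Few single-copy markers of other lineages passed. Means above day 0 were seen for 7 of 9 trophoblast and simple epithelium markers and 7 of 10 fibroblast and mesenchyme markers. Their medians were 0.17 and 0.30. The same held for 5 of 7 mesoderm and 4 of 7 neuroectoderm markers. Krt18, a keratin of simple epithelia and trophoblast, had 63, 80.9 and 82.6 FPKM and then 127, 137 and 149, a rise of 0.87 (SE 0.10, limma adjusted p = 0.0001, and 0.03 in the 6 libraries). Krt18 was the only call among the 9 single-copy markers and has a looser copy elsewhere in the genome. Krt8, counted as copied, also rose, by 0.46 to 0.76 over the settings, but did not pass in the 6 libraries alone. Vim, the intermediate filament of mesenchyme, rose from 82 ± 6.95 to 134 ± 21.4 (SD, n = 3; adjusted p = 0.0012, and 0.07). Thy1, a surface glycoprotein on the fibroblast list, fell from 7.91, 7.26 and 7.69 to 3.66, 4.32 and 3.89 (adjusted p = 0.0031, and 0.014). Wnt3, the ligand of the primitive streak and 1 of 7 mesoderm markers, had 0.497, 0.816 and 0.845 and then 1.71, 1.6 and 1.65 (adjusted p = 0.0043, and 0.068). Sox1, a neural progenitor factor, was the only call of 7 neuroectoderm markers, at 0.67 (adjusted p = 0.016, and 0.24).

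Targets of p53 rose in part. Of 22 single-copy targets 6 rose (Plk2, Cdkn1a, Plk3, Perp, Ccng1 and Phlda3), none fell, and the median difference was 0.21. Over all single-copy genes 2.64% rose. Against the day 0 cytoplasm the median was -0.04, with 12 of the 22 means below it. None of the 6 passed in the 6 libraries alone, where adjusted p ran from 0.2 to 0.28, and between 2 and 6 passed when 1 of the 6 libraries was left out. Plk2, a kinase of centriole duplication, had 9.45, 12.3 and 12.1 FPKM and then 19.6, 21.7 and 13.9, with no overlap and replicate 3 lowest. Its difference was 0.67 (SE 0.15, limma adjusted p = 0.015). Ccng1, cyclin G1, had 88.7, 99.9 and 87.6 and then 128, 134 and 109, above each day 0 library and level with the day 0 cytoplasm mean of 124. Mdm2, the ubiquitin ligase of p53, had 27.1, 32.5 and 28.2 and then 36.3, 36.5 and 23.9; the groups overlapped (adjusted p = 0.72).

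Among 25 regulators of entry into S phase, 3 inhibitors rose and nothing fell, where 2.64% and 0.991% of all single-copy genes did. Besides Cdkn1a they were Cdkn2a, which encodes p16 and p19, and Rb1, the retinoblastoma protein. Cdkn2a had 3.95, 4.48 and 4.48 FPKM and then 6.93, 6.91 and 6.74. Its day 4 libraries were nearly identical and well above day 0, with a difference of 0.62 (SE 0.11, limma adjusted p = 0.0026, and 0.043 in the 6 libraries). Its mean reached 20.1 at day 10. Rb1 had 2.63, 2.84 and 2.71 and then 3.54, 3.65 and 4.07, which is above day 0 whole cells but below the day 0 cytoplasm mean of 4.16 (adjusted p = 0.0084, and 0.22). None of 15 DNA replication genes and 1 of 15 mitosis genes passed, the kinesin Cenpe at 0.45 (limma adjusted p = 0.047, and 0.2 in the 6 libraries). Its day 4 mean was not above the day 0 cytoplasm mean.

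Pluripotency genes were near their day 0 levels in whole cells. Against the day 0 cytoplasm, 11 of the 19 single-copy naive pluripotency genes had lower means and 8 had higher means, with a median of -0.49. Pou5f1, which encodes Oct4, had 350, 325 and 322 FPKM and then 390, 386 and 453 (adjusted p = 0.068). Sox2 had means of 169 ± 5.99 and 164 ± 21.7 (SD, n = 3; adjusted p = 0.81). Nanog, which has many pseudogenes and was counted as copied, had 211 ± 18 and 191 ± 51.2 (adjusted p = 0.56). Of 19 naive pluripotency genes only Gbx2, a homeobox factor downstream of LIF, passed: it had 10.2, 13 and 11.9 and then 18.7, 18.7 and 19.1, a rise of 0.67 (SE 0.13, limma adjusted p = 0.0051, and 0.043 in the 6 libraries).

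Of 11 primed pluripotency genes 3 fell and none rose, with a median of -0.11. Over all single-copy genes 0.991% fell. Otx2, a transcription factor of the epiblast, had 13.7, 12 and 11.5 FPKM and then 9.03, 8.92 and 10.2 (adjusted p = 0.036). Zic2, a zinc finger factor, fell from 20.9 ± 2.91 to 14.3 ± 1.53 and Dnmt3b, a DNA methyltransferase, from 134 ± 20.2 to 91.8 ± 21.5 (SD, n = 3; adjusted p = 0.011 and 0.04). In the 6 libraries alone none of the 3 passed (adjusted p 0.17 to 0.37), and 10 of the 11 genes had day 4 means above the day 0 cytoplasm. At day 10 the means of Otx2 and Dnmt3b were 2.69 and 45.2.

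Signalling genes changed in small numbers. Among 14 genes of the LIF and Stat3 pathway, Pim2 and Pim3, survival kinases that Stat3 induces, fell, and Gbx2, described above, rose. The median was -0.04. Pim2 had 91.4, 107 and 101 FPKM and then 55, 60.7 and 61.8, a difference of -0.75 (SE 0.11, limma adjusted p = 0.00093, and 0.021 in the 6 libraries), still above its day 0 cytoplasm mean of 35.1. Pim3 went from 66.3 ± 2.13 to 54.4 ± 3.11 (adjusted p = 0.03, and 0.31).

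Of 19 genes of the ERK response and its feedback, 3 fell (Fos, Egr1 and Ier2), 1 rose, and the median was 0.01. Fos had 12.9, 8.63 and 6.54 FPKM and then 3.45, 6.26 and 3.75, with a log2 difference of -0.97 (SE 0.25, limma adjusted p = 0.035). Egr1 had 20.4, 21 and 20.5 and then 11.4, 16.5 and 7.16, so that the day 0 libraries were nearly equal and those at day 4 differed by over 2-fold (adjusted p = 0.017). Ier2 fell by 0.30 (adjusted p = 0.041), while Spred1, an inhibitor of the pathway, rose by 0.31 (adjusted p = 0.034). None of these 4 passed in the 6 libraries alone (adjusted p 0.23 to 0.32), and the 3 that fell were all above their day 0 cytoplasm means. Of the 19 means, 10 were above day 0. Egr1 was at 35.5 at day 8, above day 0.

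Nodal, a ligand of the TGF-beta family, had 27, 28.4 and 27.9 FPKM and then 40.8, 40.2 and 37.3. The rise of 0.50 (SE 0.07, limma adjusted p = 0.00089, and 0.056 in the 6 libraries) put it above all day 0 fractions, and it stayed at 40.1 and 43.5 at days 8 and 10. Id1, a target of BMP signalling, rose by 0.67 (adjusted p = 0.018, and 0.18). They were the 2 calls among 15 genes of these pathways, whose median was 0.22. The Wnt target Cdx1 had 1.28, 1.38 and 1.41 and then 2.7, 2.47 and 3 (adjusted p = 0.0019, and 0.033), the only call of 12. F3, tissue factor and a target of YAP, rose by 0.87 (adjusted p = 0.00054, and 0.06), the only call of 12 on that list.

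**Figure D4:**
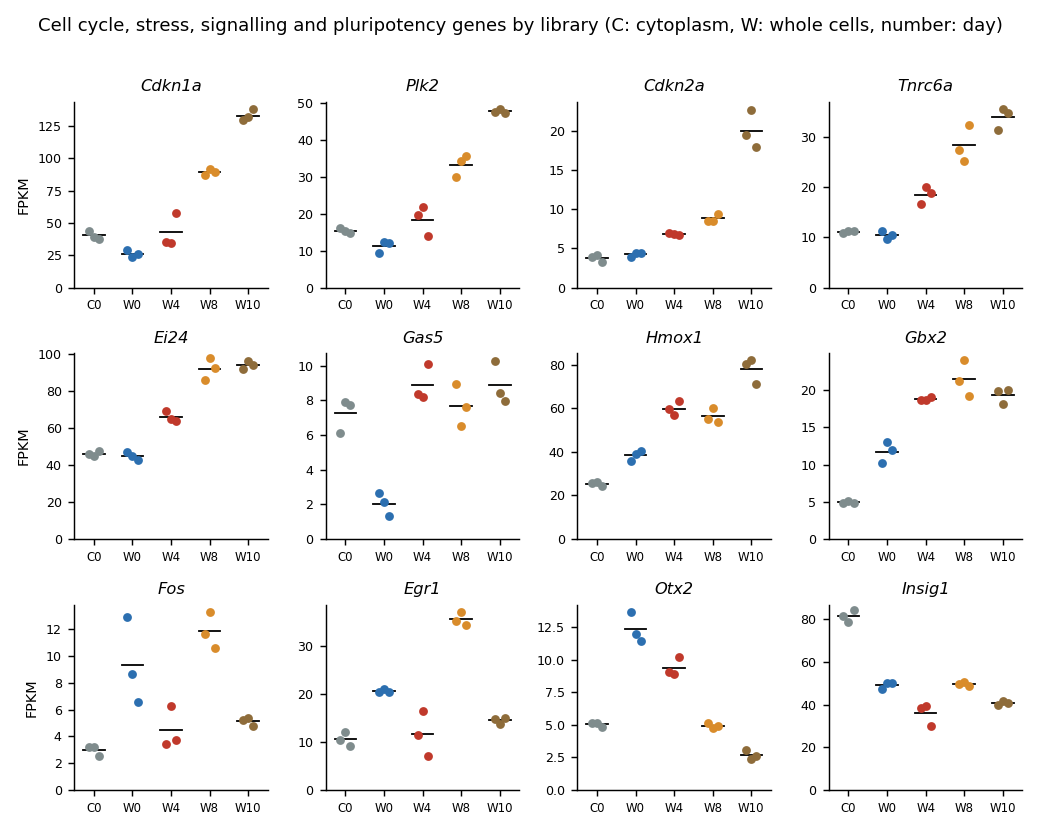
FPKM (y, from 0) of cell cycle, p53, machinery, stress, signalling and pluripotency genes by library (points) with group means (lines), for the day 0 cytoplasm (C0) and whole cells at days 0 to 10 (W0 to W10). Cdkn2a, Ei24 and Gbx2 have tight day 4 values above day 0, while Fos, Egr1, Otx2 and Insig1 lie below their day 0 whole cell values.

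Hmox1, haem oxygenase, had 35.7, 39 and 40.7 FPKM and then 59.7, 56.9 and 63.2. It rose by 0.63 (SE 0.08, limma adjusted p = 0.00029, and 0.031 in the 6 libraries) and lay above all day 0 fractions. Nqo1, a quinone reductase and like Hmox1 a target of Nrf2, rose from 17.5 ± 1.44 to 26.7 ± 3.71 (SD, n = 3; adjusted p = 0.0041, and 0.1). They were the only calls among 12 oxidative stress genes, of which 10 had means above day 0.

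Every one of 21 single-copy cholesterol synthesis genes had a mean difference below 0, with a median of -0.23 and a range from -0.46 to -0.04. Insig1, the sterol sensor, fell from 47.5, 50.3 and 50.4 FPKM to 38.4, 39.6 and 30.3 (limma adjusted p = 0.014). The enzymes Ebp and Sqle fell by 0.34 and 0.32 (adjusted p = 0.044 and 0.046). No other member passed, none of the 3 passed in the 6 libraries alone (adjusted p 0.19 to 0.36), and the medians at days 8 and 10 were 0.06 and 0.01. All 17 single-copy respiratory chain genes had means above day 0, with a median of 0.13, and none passed by limma at an adjusted p under 0.05. By library, their median was 0.12, 0.02 and 0.19 in day 4 replicates 1, 2 and 3, so replicate 2 hardly showed it. The median over all single-copy genes at day 4 was -0.00.

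By the rule for named genes, the largest protein-coding rises that also stood above the day 0 cytoplasm were Olfr613, Hsd3b2, Caps2, Fam221b, Srgn, Cox7a2, Zfp488, H2-Q6, Ltb4r1 and Ltb4r2. Olfr613, an olfactory receptor gene, had 1.39, 0.677 and 0.647 FPKM at day 0 and 10.7, 9.1 and 6.61 at day 4. It was 9.71-fold higher with no overlap (difference 2.74, SE 0.21, limma adjusted p = 1.9e-06, and 0.0041 in the 6 libraries), and reached 24.8 at day 10. Hsd3b2, a steroid dehydrogenase with looser copies, had 0.38, 0.307 and 0.194 and then 4.79, 4.41 and 3.88 (difference 2.62, adjusted p = 2.7e-08, and 0.00078). Both were also higher in the day 12 cytoplasm, by 3.03 and 2.43 (adjusted p = 0.00065 and 0.00077). The naming rule took rises above the day 0 cytoplasm, the baseline of that comparison, so these values are no separate support.

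Cox7a2, a subunit of cytochrome c oxidase, had 51.7, 52.6 and 41 FPKM and then 157, 124 and 272. Its rise of 1.85 (SE 0.21, limma adjusted p = 6.7e-05, and 0.026) was not seen in the cytoplasm at day 12, where it had -0.31 (adjusted p = 0.61). Caps2, a calcium-binding protein gene, had 2.13, 1.12 and 1.01 and then 5.45, 5.14 and 15, and replicate 3 was nearly 3-fold above the other day 4 libraries. Fam221b had 0.227, 0.288 and 0.365 and then 2.89, 1.07 and 6.72, again spread widely. Neither Caps2 nor Fam221b passed in the 6 libraries alone (adjusted p = 0.066 and 0.12), nor did H2-Q6, a class I histocompatibility gene with close relatives (adjusted p = 0.34).

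Zfp488, a zinc finger gene with looser copies and 2 miR-17 sites, had 11.8, 5.45 and 5.78 FPKM and then 25.9, 31.3 and 19.3 (difference 1.73, adjusted p = 0.00062, and 0.046), and reached 67.3 at day 10. The neighbours Ltb4r1 and Ltb4r2, receptors for leukotriene B4, had means of 0.546 ± 0.0709 and 0.618 ± 0.166 at day 0 and 2.19 ± 0.645 and 2.05 ± 0.319 at day 4 (SD, n = 3). They rose by 1.34 and 1.20 (limma adjusted p = 0.011 and 0.01, and 0.023 and 0.024 in the 6 libraries).

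The largest protein-coding falls under the same rule were Dicer1, Rex2, Zfp989, Tmem181a, Zfp955b, Thy1, Tjp3, Capn5, Rnps1 and Grhl3. Rex2 and Zfp989 are zinc finger genes of 1 cluster on chromosome 4 with looser copies. Rex2 had 14.4, 15.4 and 13.4 FPKM and then 3.33, 3.15 and 1.21, but its day 0 cytoplasm mean of 2.61 was as low as day 4 (2.56). Zfp989 had 13.6 ± 1.83 and then 4.36 ± 1.33 (SD, n = 3), with 4.51 in the day 0 cytoplasm. For both, the day 0 whole cells stood above every other group shown here.

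Tjp3, the tight junction protein ZO-3, had 14.9, 12.5 and 15 FPKM and then 8.58, 9.89 and 7.19, against 27 in the day 0 cytoplasm and 25.3 in the day 0 nucleus. Its fall of 0.70 (limma adjusted p = 0.0044, and 0.081 in the 6 libraries) was also found in the cytoplasm at day 12, at -2.34 (adjusted p = 0.00011). Thy1 was lower there too, at -1.83 (adjusted p = 0.00019). The naming rule took falls below the day 0 cytoplasm, the baseline of that comparison, so the values of Tjp3 and Thy1 are no separate support. Capn5, a calpain protease with a miR-290/miR-302 site, had 11.1, 9.24 and 11.8 and then 6.73, 8.66 and 4.48 (adjusted p = 0.035, and 0.29). Grhl3, an epithelial transcription factor, had 8.61 ± 0.684 and then 5.49 ± 0.68 (SD, n = 3), and was back at 8.84 at day 8 (adjusted p = 0.017, and 0.086).

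Of the lncRNAs, Gm26880, Gm17146, Gas5, Snhg9 and Gm7976 had the largest rises under the rule. Gas5 (chr1:161034422-161038539, plus strand), which carries snoRNAs in its introns, had 2.62, 2.12 and 1.32 FPKM and then 8.36, 8.18 and 10.1, a rise of 1.92 (SE 0.18, limma adjusted p = 1.3e-05, and 0.0075 in the 6 libraries). Its day 0 cytoplasm mean was 7.25, close under day 4, and it was lower in the cytoplasm at day 12 by 0.68 (adjusted p = 0.0063). Snhg9, a further snoRNA host, was listed at 0 in 2 day 0 libraries and at 0.0722 in the other, and had 1.74, 0.652 and 0.968 at day 4 (adjusted p = 0.0042, and 0.036). They were the 2 calls among 11 snoRNA hosts. Gm26880 had 1.25, 1.34 and 0.937 and then 14.5, 18.7 and 13.4, with 10 in the day 0 cytoplasm, and Gm17146 had 0.116 ± 0.115 and then 2.41 ± 0.747 (SD, n = 3).

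Gm13075, Gm14341, Gm15401, 4930558J22Rik and B230322F03Rik had the largest lncRNA falls. Gm14341 had 0.856, 1.25 and 1.03 FPKM and then 0.182 with the other 2 day 4 libraries listed at 0, below all day 0 fractions (adjusted p = 0.0018, and 0.017), but stood at 0.943 at day 8. Gm15401 had 6.24, 6.35 and 7.25 and then 3.18, 2.63 and 1.62 (adjusted p = 0.0007, and 0.033). Gm13075 rested on uneven day 0 libraries, 9.15, 6.88 and 1.84, and did not pass in the 6 libraries (adjusted p = 0.17). Malat1 and Neat1, abundant nuclear lncRNAs, did not pass and overlapped between days. Malat1 had 70.4, 23.5 and 25.8 and then 39.4, 54.9 and 122 (adjusted p = 0.31).

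The day 4 calls were followed into libraries that had no share in making them. Cytoplasm at day 12 against cytoplasm at day 0 shares no library with the day 4 comparison. There, 17.9% of single-copy genes were higher and 18.5% lower. Of the 350 day 4 rises tested, 202 were higher (57.7%) and 14 lower, with a median of 0.68 against -0.03 over all. Of 130 falls, 54 were lower (41.5%) and 10 higher, with a median of -0.31. In the nucleus, where 16% of single-copy genes were higher and 23.2% lower, 125 of the 350 rises were higher (35.7%) and 56 of the 130 falls were lower (43.1%).

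**Figure D5:**
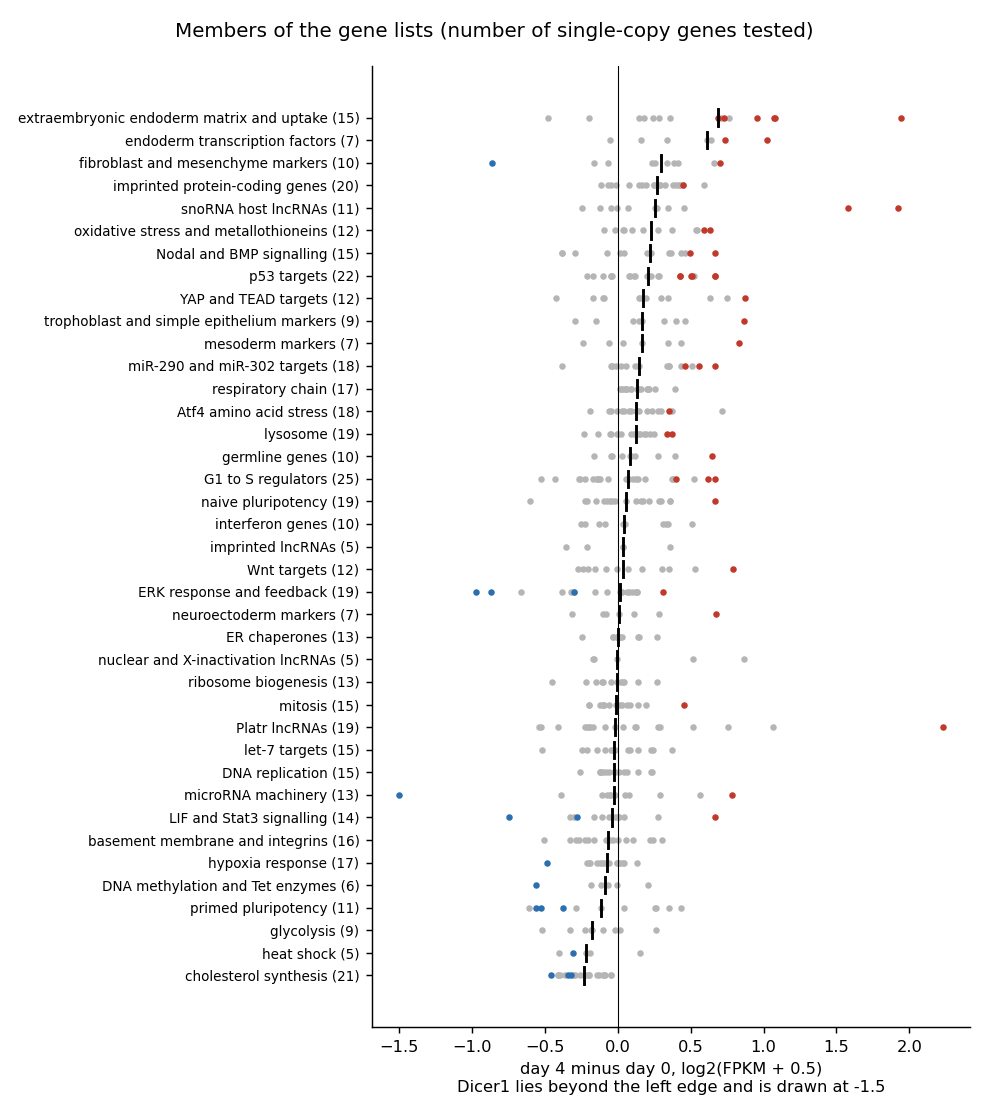
Differences between day 4 and day 0 (x, log2(FPKM + 0.5)) of the single-copy members of each gene list with at least 5 of them (points; red rose, blue fell, grey did not pass), with the list's median (black bar), ordered by median, Dicer1 being drawn at the left edge. The matrix and uptake genes of the extraembryonic endoderm lie at the top with a median of 0.69, cholesterol synthesis at the bottom with -0.23, and most medians are within 0.3 of 0.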

How the data were processed

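Polyadenylated RNA was sequenced as directional pairs of 100 bases, per the labels' protocols. The authors deposited FPKM values, 1 per gene and library, per the file headers. Tools listed without a role in the submitters' processing notes are Cufflinks 1.3.0 and TopHat2 2.0.9, with the build mm9. For annotation, strand setting, reads with several matches and absolute depth the entry is "not given in the sources used here", so overlapping and related genes may share reads. Gene classes, positions and UTRs came from GENCODE M21 (GRCm38), matched by identifier. A gene counted as copied if its transcript aligned (minimap2 2.31) at 95% identity or more over 50% or more to an annotated transcript elsewhere, or a pseudogene bears its name. No genome was used for this search.

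The test was limma 3.58.1 (eBayes with trend, R 4.3.3) on log2(FPKM + 0.5) over 15 whole cell libraries, or the 12 fraction libraries, for genes with a mean of 0.5 FPKM in a group, with Benjamini-Hochberg adjustment over all genes tested and a threshold of 0.05. For genes near the pseudocount of 0.5 FPKM, differences come out smaller than the true fold. In simulated data on 15991 genes with equal spread in all groups, the day 4 against day 0 test recovered 73% of changes of 1 and 93% of changes of 2, with 11 false calls among 177. The real day 4 libraries had a larger spread than the other groups, so these rates do not carry over to them. Other fits and scalings were run as alternatives. Replicate numbers did not pair the libraries.

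The naming rule took the 10 largest rises and falls of protein-coding genes and the 5 of lncRNAs that passed, reached 2 FPKM (lncRNAs 1 FPKM), did not overlap between groups and lay on the same side of the day 0 cytoplasm (predicted protein-coding models left out), up to 4 called members of each of 40 lists, and a set of 15 followed throughout. Some of these are left out, and other called list members are named beside them. The comparison, the members and the lists were chosen with earlier results of these data known.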

Additional observations from a re-analysis of the deposited data

How the results depend on the processing

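Single-copy calls numbered 483 and those outside all day 0 levels 237. With only the 6 libraries compared they were 84 and 44, and 438 over all genes in place of 1071. With groups weighted by their spread, an alternative chosen after seeing the data, they were 112, 50 and 439. Quantile normalization gave 360 outside the day 0 levels, and a fit of protein-coding and lncRNA genes alone 509 calls over its genes. Leaving out 1 of the 6 libraries gave 267 to 1065 single-copy calls, 138 to 538 outside the day 0 levels and 735 to 1721 over all genes. Defining copies by pseudogene name alone or by sequence alone, also chosen after seeing the data, gave 581 and 503 single-copy calls. The replicate numbers did not pair the libraries (correlations of deviations -0.26, 0.09 and -0.30), and a replicate block gave 376 single-copy calls. Without the libraries labelled day 12 there were 378. Calls in the day 4 direction in the cytoplasm at day 12 numbered 256, and 200 to 277 under the alternatives. Dicer1 stayed between -3.49 and -2.86. The miR-290/miR-302 site difference of 0.03 was 0.11 in short and 0.11 in middle UTRs; leaving out 1 library gave 0.01 to 0.06, for miR-17 0.02 to 0.11, and for let-7 -0.08 to 0.02. Signs turned for 3 genes that had not passed: Rbl2 was at -0.053 and Casp2 at -0.032 under quantile normalization, and leaving out 1 library gave -0.13 to 0.26 for Rbl2, -0.040 to 0.13 for Casp2 and -0.16 to 0.0079 for Sox2. The cause was not tested. Of 88 genes called at day 4 that the naming rule picks, not all of them described above, 31 kept their call with the 6 libraries alone, 58 to 80 with 1 library left out and 73 to 88 under the other settings, and none turned its sign. The absolute depth is unknown, and low genes at day 4 rest on fewer reads than at day 0.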

Other observations

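Genes with copies behaved unlike single-copy genes in the same comparison. Of 629 copied protein-coding genes 100 fell (15.9%) and 30 rose (4.77%), against 0.951% and 2.65% of single-copy ones. Of 1033 pseudogenes 350 rose (33.9%) and 31 fell, with a median difference of 0.79 on the log2(FPKM + 0.5) scale. Gapdh, the glycolytic enzyme with many pseudogenes, had a mean of 798 ± 80.9 FPKM (SD, n = 3) in whole cells at day 0, 72.1 ± 10.7 at day 4 and 50 in the day 0 cytoplasm. Its limma difference at day 4 was -3.46 (SE 0.12), beyond that of Dicer1. Pgk1 had 370 and 167, with 174 in the day 0 cytoplasm. A looser search for copies found 38 of the 132 single-copy falls and 35 of the 351 rises to have a partial relative, and some copied genes may remain among them.

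Cmah, which makes N-glycolylneuraminic acid, had the largest rise of a protein-coding single-copy gene, 3.15 (SE 0.40, limma adjusted p = 0.00018). It had 0.0748, 0.0839 and 0.0726 FPKM at day 0 and 7.43, 8.06 and 1.49 at day 4, but 13.3 in the day 0 cytoplasm and 21.2 in the day 0 nucleus, so day 4 lay inside the range of untreated fractions. It was picked out here after its values were seen. Among 20 imprinted protein-coding genes 16 had day 4 means above day 0 with a median of 0.27, and 1 passed, Sgce at 0.45 (limma adjusted p = 0.029, and 0.26 in the 6 libraries alone). The 18 amino acid stress genes of Atf4 had a median of 0.13 at day 4, with Trib3, a pseudokinase, as the only call (0.35, adjusted p = 0.046, and 0.24), and of -0.45 at day 8.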
